A study of Mus musculus with 6 samples.

Results

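Chemokines are small secreted proteins that guide the movement of leukocytes through receptors coupled to G proteins. They fall into CC and CXC families, named for the spacing of their first cysteines, with Ccl and Cxcl ligands and Ccr and Cxcr receptors. One branch, the lymph node homing chemokines, is made constantly by stromal cells of lymphoid organs, where it places B cells and T cells. Another branch, the inflammatory chemokines, is made by many cell types on demand and calls monocytes, neutrophils, eosinophils and effector T cells into tissue, including injured muscle. The genes described here are the 53 chemokine ligand and receptor genes (37 ligands and 16 receptors) among the 23997 gene symbols measured. They were chosen by name, as symbols that start with Ccl, Cxcl, Ccr or Cxcr followed by a digit, which 54 symbols match and from which 1 was left out. By their known roles, 7 of them are lymph node homing genes, 27 are inflammatory and 19 have other roles, in skin, gut, thymus and resting tissue or in dendritic cells, B cells and T cell subsets.

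RNA sequencing was performed on gastrocnemius, the large calf muscle, from 3 HrasG12V mice (2276, 2278 and 2279) and 3 wild-type (WT) littermates (2277, 2280 and 2281), all untreated and 21 days old, with 1 library per mouse, on a mixed strain background. *Hras* encodes a small GTPase of the Ras/MAPK pathway, and the G12V change, which keeps it active, is a model of Costello syndrome. HrasG12V mice were Caggs-Cre+/HrasG12V/+, and their controls were Caggs-Cre-/HrasflG12V/+, so that the controls also carried the floxed allele but no Cre and are labelled Hras+/+. The Cre driver is active throughout the body, so the mutation was present in leukocytes and stroma as well as in muscle fibers, and neither sex, litter nor batch is labelled. The question addressed is whether chemokine transcripts differed between HrasG12V and WT muscle, and whether the lymph node homing and inflammatory branches did so alike.

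The values are FPKM, which scale the reads of a gene by transcript length and library size, and the read depth behind each one is known only as a nominal depth that the methods state, so no counting error was computed. Their sum was 814013 in HrasG12V mouse 2276 and 413020 to 547122 in the other libraries, so mouse 2276 stood apart in this total. Among the genes tested the median lay at 6.39 to 6.64, lowest in the same mouse. The part of this in its chemokine levels was not tested beyond rescaling to equal totals, median centring and quantile normalization. Values listed at exactly 0 need care, because the muscle genes *Acta1* and *Myh4* were listed at 0 in all 6 libraries and *Ckm* in 5 of them. Other muscle genes were abundant, with *Des*, a filament protein of muscle, at 635 to 1804 FPKM. *Hras* itself was at 58.8, 28.9 and 16.0 FPKM in HrasG12V mice 2276, 2278 and 2279 and at 36.8, 36.0 and 51.8 in WT mice 2277, 2280 and 2281. These ranges overlapped (limma adjusted p = 0.797, with a log2 fold change of −0.44 and a standard error of 0.47), and the gene's FPKM does not tell the mutant allele from the normal one. Throughout, FPKM are given in the order 2276, 2278, 2279 for HrasG12V mice and 2277, 2280, 2281 for WT mice.

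As a whole, chemokine genes were more often higher than lower in HrasG12V muscle, but the 3 mice were not alike. Of the 53 genes, 46 were above 0 in at least 1 library. In 13 of these 46 (28.3%), each HrasG12V mouse lay above each WT mouse, against 7.55% of the 19388 genes above 0. The opposite arrangement was found in 1 of 46 (2.17%), against 8.54% of all genes. Mouse 2278 lay above every WT mouse for 36 of the 46 genes (78.3%) and mouse 2279 for 32 (69.6%), where 34% and 34.6% of all genes did. Mouse 2276 lay above every WT mouse for 20 of the 46 (43.5%), nearer to its background of 35.8%. The 3 mice lay below every WT mouse for 8 (2276), 4 (2278) and 5 (2279) of the 46 genes, where 33.5%, 34.8% and 33.3% of all genes did. Where a WT mouse was listed at 0, as for *Cxcl13*, *Ccl7* and *Ccr6* among others, no mouse could lie below it. The counts of lower genes were therefore in part fixed in advance. Genotypes were compared with limma on log2(FPKM + 0.1) over the 13359 genes with a mean of at least 0.5 FPKM, a scale that understates the change of low genes. Of the 25 chemokine genes in that fit, 11 had an unadjusted p below 0.05 with higher values in HrasG12V muscle and 0 with lower values, while 5.18% and 4.99% of all genes tested did (10.2% in either direction). After Benjamini-Hochberg adjustment over all genes tested, 0 of the 25 passed 0.05 (lowest adjusted p 0.345), and 8 genes of the whole table did (0.0599%). In another fit, libraries were weighted by their estimated spread around their group (array weights). There 15 chemokine genes were higher and 1 lower by unadjusted p, and 11 passed the adjusted p (lowest 0.0124), when 572 genes of the whole table did. Log2 fold changes of *Ccl19*, *Ccr7* and *Cxcl13* were then 4.70, 5.09 and 5.81, near the 4.82, 5.37 and 6.04 found when mouse 2276 was left out. A gene that is low in WT muscle enters the fit only through the mice in which it is high. The counts over all 46 genes share this limit in part. *Ccl1*, *Ccl17*, *Ccr3*, *Ccr6*, *Ccr8*, *Cxcl2* and *Cxcr1* were listed at 0 in every WT mouse, so they could only be higher. Both kinds of count are therefore descriptions. Without the limit on low values, 16 of the 46 had p below 0.05 and were higher (4.91% of all genes) and 0 were lower (4.43%).

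The count of 11 depended on single mice. It was 15 higher and 1 lower without mouse 2276, when 12.4% of all genes tested were higher and 17.4% lower. In that set 12 genes were higher and 1 (*Ccl25*) lower also by the adjusted p, against 5.37% and 4.3% of all genes tested. The unadjusted count was 3 without mouse 2278, 4 without mouse 2279, 3 without WT mouse 2277 and 7 without WT mouse 2280 or 2281. Over all 13359 genes the counts in the same omissions were 1294, 1537, 635, 709 and 606 in either direction, against 1358 with all mice. With mouse 2276 as the only HrasG12V mouse, by unadjusted p, 2 genes were higher (*Ccl8* and *Ccr7*) and 1 lower (*Ccr2*), against 25.5% and 21.7% of all genes tested. Here the lone mouse was assumed to vary as the WT mice did.

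**Figure D1:**
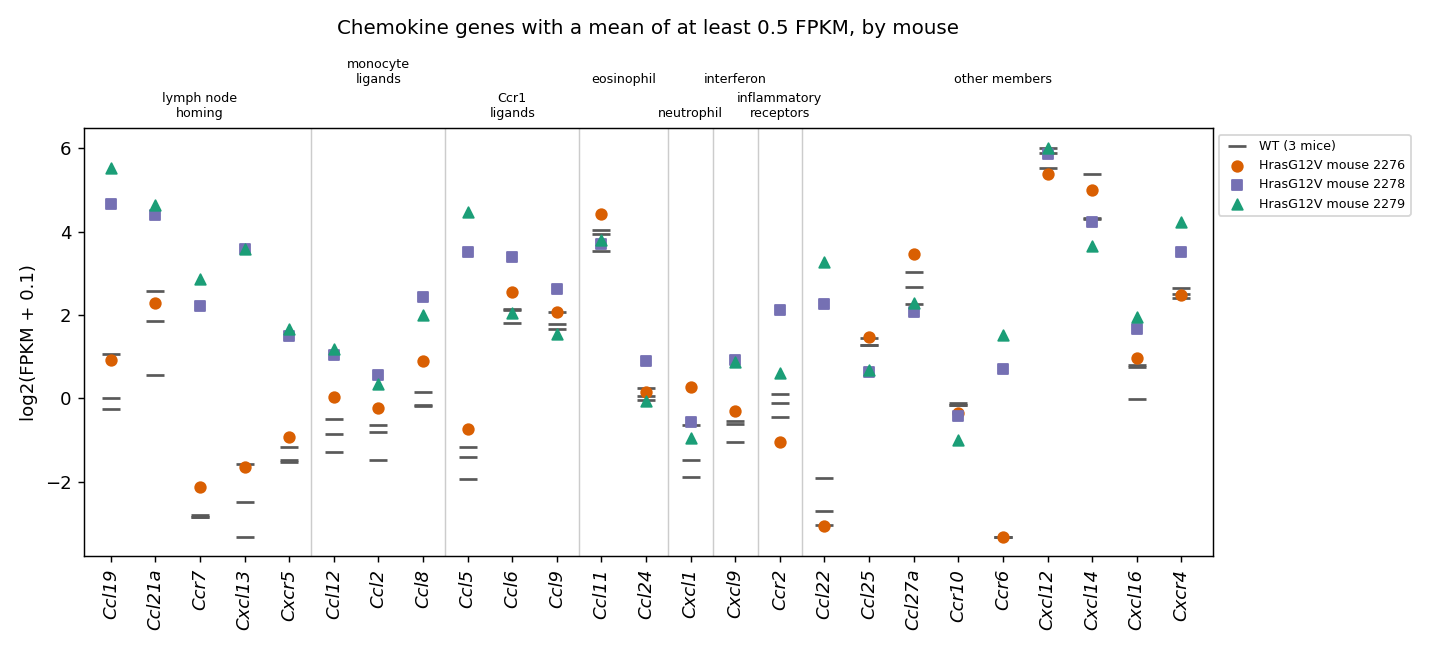
Level of the 25 chemokine genes with a mean of at least 0.5 FPKM, as log2(FPKM + 0.1), with 1 symbol per HrasG12V mouse and 1 dash per WT mouse, grouped by role. Mice 2278 and 2279 stand far above the WT mice for the lymph node homing genes, Ccl5, Ccl22 and Ccr6, mouse 2276 stays near them, and Cxcl12, Ccl11 and Ccl9 overlap between genotypes.

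Many chemokine genes lie in tandem clusters of related copies. The 250 bases before the start are printed for a pair of lymph node homing genes, for neighbouring monocyte ligands that kept an unadjusted p below 0.05 whichever mouse was left out, and for *Cxcl10*, which held matches to both motifs searched. They come from RefSeq on GRCm38.p6 and run 5′ to 3′ on the gene's strand, with motif matches in capitals.
*Ccl21a*, chr4:42773992-42774241, minus strand: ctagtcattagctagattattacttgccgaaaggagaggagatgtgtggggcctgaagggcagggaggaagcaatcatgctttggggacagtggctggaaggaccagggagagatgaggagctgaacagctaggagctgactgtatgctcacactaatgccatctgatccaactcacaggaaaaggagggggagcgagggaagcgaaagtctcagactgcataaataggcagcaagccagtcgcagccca
*Cxcl13*, chr5:95956689-95956938, plus strand: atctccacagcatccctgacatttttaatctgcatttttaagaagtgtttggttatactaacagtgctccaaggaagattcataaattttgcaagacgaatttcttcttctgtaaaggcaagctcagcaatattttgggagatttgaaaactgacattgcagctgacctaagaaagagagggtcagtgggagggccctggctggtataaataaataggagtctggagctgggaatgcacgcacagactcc
*Ccl12*, chr11:82101595-82101844, plus strand: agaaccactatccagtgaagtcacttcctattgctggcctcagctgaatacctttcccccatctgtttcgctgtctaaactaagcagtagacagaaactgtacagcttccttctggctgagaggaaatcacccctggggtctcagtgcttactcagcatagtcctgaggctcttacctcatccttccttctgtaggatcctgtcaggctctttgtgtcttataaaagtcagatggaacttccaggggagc
*Ccl8*, chr11:82114935-82115184, plus strand: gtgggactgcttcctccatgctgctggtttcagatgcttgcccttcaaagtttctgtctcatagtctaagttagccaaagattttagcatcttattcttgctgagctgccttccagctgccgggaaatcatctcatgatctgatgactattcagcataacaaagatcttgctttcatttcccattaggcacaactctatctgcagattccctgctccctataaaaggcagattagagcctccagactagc
*Cxcl10*, chr5:92348890-92349139, minus strand: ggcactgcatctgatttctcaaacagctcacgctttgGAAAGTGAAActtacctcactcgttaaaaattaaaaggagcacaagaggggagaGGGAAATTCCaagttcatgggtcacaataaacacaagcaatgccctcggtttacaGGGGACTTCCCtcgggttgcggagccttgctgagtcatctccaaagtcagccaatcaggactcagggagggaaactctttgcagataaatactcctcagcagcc

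Both strands were searched for the kappa B consensus, the site of NF-kappa B proteins, and for GAAA, any NN and GAAA in a row, a core of interferon response elements. Of the 53 chemokine genes, 37 had such a sequence. The kappa B consensus was found in 10 of them (27.0%), against 8.23% of 27025 genes with a sequence. These were *Ccl1*, *Ccl9*, *Ccl20*, *Ccr1*, *Ccr3*, *Ccr6*, *Cxcl1*, *Cxcl2*, *Cxcl3* and *Cxcl10*, of which *Ccl9*, *Ccr6* and *Cxcl1* were tested between genotypes and 0 had an unadjusted limma p below 0.05 (0 also by the fit without shared spread). Among all 10, *Cxcl10* alone had genotypes without overlap. The interferon core was found in 3 (*Ccl19*, *Cxcl10* and *Cxcl14*), or 8.1% against 3.46%. In *Cxcl10* the capitals mark GAAAGTGAAA, the kappa B match GGGAAATTCC, and GGGGACTTCCC, which is made of overlapping kappa B matches. *Ccl21a*, *Cxcl13*, *Ccl12* and *Ccl8* held neither motif in this window, and a match is a stretch of letters, not a measured binding site.

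Lymph node homing genes differed most between mice. Their summed level was 7.34 FPKM in mouse 2276, 65.5 in mouse 2278 and 92.3 in mouse 2279, against 4.56, 2.80 and 8.27 in WT mice. Mice 2278 and 2279 therefore stood well above every other animal, while mouse 2276 lay within the WT range. The median log2 difference over the 5 genes of this group above 0 was 3.43 (1.83 with 1 instead of 0.1 added before taking logs), where the median of all genes above 0 was −0.000496. Taken mouse by mouse over the WT mean, it was 0.66, 4.40 and 5.24 in mice 2276, 2278 and 2279.

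The ligands of *Ccr7* come first. *Ccl19*, which with Ccl21 leads T cells and dendritic cells into the T cell zone, lies on chromosome 4 (42754525 to 42756577, minus strand, GRCm38, GENCODE vM21). It was at 1.80, 25.3 and 45.6 FPKM in HrasG12V mice and 0.738, 0.902 and 1.99 in WT mice. Mouse 2276 fell among the WT mice, so the genotypes overlapped although the log2 fold change was 3.43 ± 1.15 (limma adjusted p = 0.446). *Ccl21a*, its neighbour (42772860 to 42773993, minus strand), displayed on high endothelial venules as well as in the T cell zone, was at 4.77, 21.0 and 24.7 FPKM against 3.52, 1.38 and 5.81. It had the highest WT levels of the group, and again only mice 2278 and 2279 were above the WT range (log2 fold change 2.11 ± 0.75, limma adjusted p = 0.465). Its near-identical copies *Ccl21b* and *Ccl21c* were listed at 0 in all 6 libraries. Of the 821 stretches of 50 bases in the *Ccl21a* transcript, 253 (30.8%) also occur in *Ccl21b*, so the level of *Ccl21a* is uncertain as to which copy the reads came from. Both genes also overlap *4930578G10Rik* on the other strand.

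*Cxcl13*, the ligand that draws B cells into follicles (chromosome 5, 95956951 to 95961068, plus strand), was at 0.216, 11.9 and 11.9 FPKM in HrasG12V mice. In WT mice it was listed at 0, 0.236 and 0.0795. The log2 fold change was 4.29 ± 1.44 (limma adjusted p = 0.448), and mouse 2276 again lay inside the WT range. The receptors followed the same order of mice. *Ccr7*, the receptor of *Ccl19* and Ccl21 on naive T cells and mature dendritic cells (chromosome 11, 99144196 to 99155077, minus strand), was at 0.128, 4.55 and 7.15 FPKM against 0.0386, 0.0384 and 0.0447. *Cxcr5*, the *Cxcl13* receptor of B cells and follicular helper T cells (chromosome 9, 44511787 to 44561877, minus strand), was at 0.427, 2.71 and 3.04 against 0.258, 0.246 and 0.348. For both receptors all 3 HrasG12V mice were above all 3 WT mice, and mouse 2276 was the lowest of the 3. Their log2 fold changes were 3.81 ± 1.29 for *Ccr7* (limma adjusted p = 0.450) and 2.13 ± 0.72 for *Cxcr5* (limma adjusted p = 0.448).

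Each of these 5 genes had an unadjusted limma p below 0.05 in the full set, and each lost it when 1 of certain mice was left out. Without mouse 2276 the log2 fold changes were larger, from 2.85 (*Ccl21a*) to 6.04 (*Cxcl13*), and all 5 had a limma adjusted p below 0.05, from 0.00152 to 0.0496. Without mouse 2278, mouse 2279 or WT mouse 2277 the unadjusted p of all 5 was above 0.05, with log2 fold changes of 1.67 (*Cxcr5*) to 3.86 (*Cxcl13*), and without WT mouse 2280 or 2281 that of some of them was. With mouse 2276 as the only HrasG12V mouse the median of the group was 0.656.

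Markers of lymphoid tissue moved with these genes in the same mice. The summed level of 8 B cell genes was 1.51, 89.8 and 71.5 FPKM in mice 2276, 2278 and 2279, against 0.710 to 1.23 in WT mice. For 9 T cell genes it was 1.26, 40.3 and 51.7 against 0.869 to 1.11, and for 8 genes of lymph node stroma and high endothelium it was 12.3, 240.7 and 339.0 against 12.8 to 16.5. In mice 2278 and 2279 the last sum was mostly *Glycam1*, a mucin of high endothelial venules, while in the other mice it was mostly *Enpp2* and *Pdpn*. *Glycam1* was at 0.186, 192.4 and 294.2 FPKM against 0.0537 to 0.242. Within these lists 4 of 8 B cell genes (*Cd79a*, *Cd79b* and *Fcrla* among them) had an unadjusted limma p below 0.05, all higher, as had 5 of 8 T cell genes tested (*Cd3e*, *Cd3d*, *Cd3g*, *Lck* and *Cd2*) and 2 of 6 genes tested of the lymph node list (*Glycam1* and *Fcer2a*, the latter also a B cell gene), and 0 genes of these lists passed the adjusted p. By the same unadjusted limit 5.18% of all genes tested were higher. Each lymphocyte gene of these lists was under 0.5 FPKM in each WT mouse and entered the fit only through the mice in which it was high, so these counts are a description. *Pdpn*, a marker of stroma, was at 6.64, 6.65 and 5.67 FPKM against 5.09, 5.72 and 6.89. The defining B cell genes *Ms4a1* and *Pax5* were at 0 and 0.0233 FPKM in mouse 2276, below and within the WT range, while *Cd79b* was at 1.06 against 0.345 to 0.486 and *Fcrla* at 0.126 against 0 to 0.112, both above it. The part of such tissue in the lymph node homing levels was not tested, and in a whole muscle sample more cells of a type and more RNA per cell cannot be told apart.

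**Figure D2:**
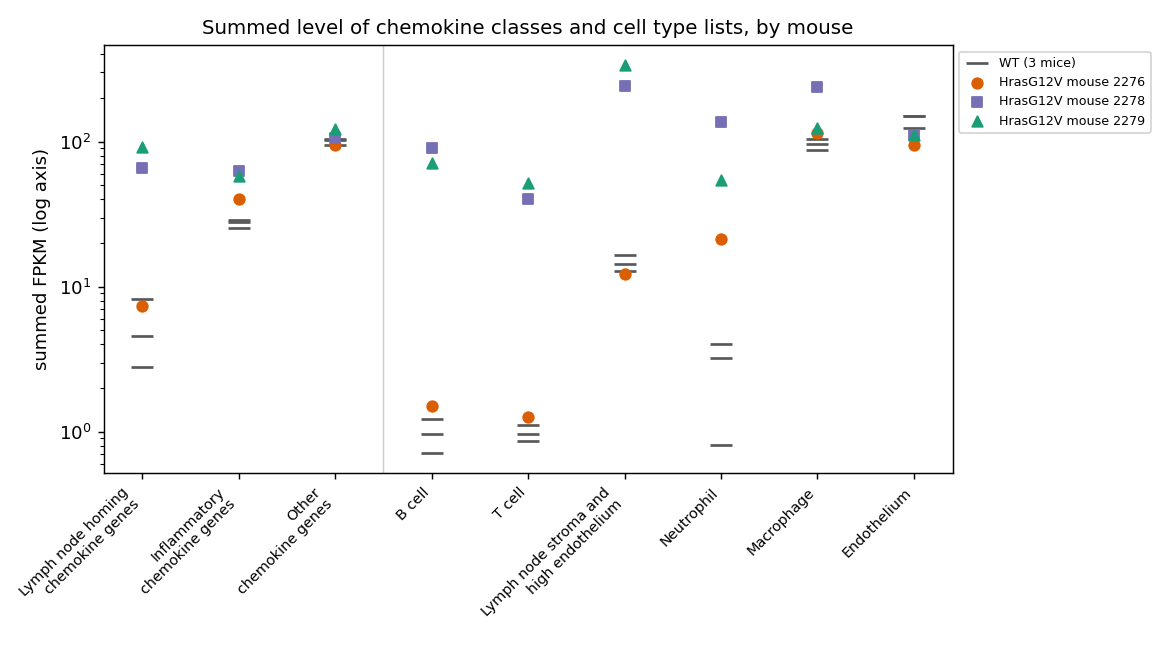
Summed FPKM (log axis) of the 3 classes of chemokine genes, left of the line, and of lists of cell type markers, right of it, with 1 symbol per HrasG12V mouse and 1 dash per WT mouse. The sums of lymph node homing genes and of B cell, T cell and node stroma markers are far above WT in mice 2278 and 2279. In mouse 2276 the homing and stroma sums are not above the WT range and the B cell and T cell sums are slightly above it (1.51 against up to 1.23 and 1.26 against up to 1.11), and the inflammatory and neutrophil sums are above WT in all 3 HrasG12V mice.

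Inflammatory genes had a smaller median difference than the lymph node homing genes, and a narrower range of it over the 3 HrasG12V mice. Their summed level was 40.0, 63.3 and 58.1 FPKM in HrasG12V mice and 28.1, 25.2 and 28.9 in WT mice, so the genotypes did not overlap. Of the 24 inflammatory genes above 0, 22 had a higher mean log2 value in HrasG12V mice and 2 a lower one (*Cxcl5* and *Cxcl15*). Among the 22, *Ccr3*, *Cxcr1* and *Cxcl2* were listed at 0 in every WT mouse, so they could only be higher. Of all genes above 0, 9665 had a higher and 9714 a lower mean log2 value. In 9 of the 24 each HrasG12V mouse lay above each WT mouse, against 7.55% of all genes. The median log2 difference was 0.81, and mouse by mouse it was 0.48, 1.30 and 0.95. In mouse 2276 it was thus below the 0.66 of the lymph node homing genes. Whether the 2 classes differ from each other was not tested. The size depended on the constant added before taking logs, at 0.298 with 1 and 1.37 with 0.01.

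Among the inflammatory genes tested, the monocyte ligands were the steadiest when single mice were left out. *Ccl2*, *Ccl7*, *Ccl8* and *Ccl12* bind *Ccr2* or related receptors, draw monocytes out of blood, and lie together on chromosome 11. *Ccl8* (82115185 to 82116799, plus strand) was at 1.77, 5.27 and 3.92 FPKM in HrasG12V mice and 0.775, 1.02 and 0.792 in WT mice. No HrasG12V mouse overlapped a WT mouse, the means were 3.65 ± 1.77 and 0.862 ± 0.136 (SD, n = 3), and the log2 fold change was 1.84 ± 0.40 (limma adjusted p = 0.345). *Ccl12* (82101845 to 82103400, plus strand) was at 0.917, 1.96 and 2.15 against 0.308, 0.452 and 0.614, also without overlap. Its log2 fold change was 1.63 ± 0.42 (limma adjusted p = 0.382). *Ccl2* (82035571 to 82037453, plus strand) was at 0.744, 1.38 and 1.16 against 0.259, 0.467 and 0.542, a log2 fold change of 1.20 ± 0.40 (limma adjusted p = 0.449). *Ccl7* (82045712 to 82047525, plus strand) was under the limit for testing, at 0.466, 1.46 and 0.477 against 0.0913, 0 and 0.155, with all 3 HrasG12V mice again higher.

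*Ccl8* and *Ccl12* kept an unadjusted limma p below 0.05 in all 6 sets that left out 1 mouse, with log2 fold changes from 1.52 to 2.28 and from 1.41 to 1.99. *Ccl2* kept it in 5 of 6 and lost it without WT mouse 2277, at a log2 fold change of 0.95. With mouse 2276 as the only HrasG12V mouse, *Ccl8* was still higher by 0.96 on the log2 scale, which passed an unadjusted p of 0.05, and *Ccl12* by 0.90 and *Ccl2* by 0.73, which did not. In a fit with no sharing of the spread across genes, *Ccl8*, *Ccl12*, *Ccl2* and *Cxcl9* were the 4 chemokine genes of 25 with an unadjusted p below 0.05, where 1317 of all 13359 genes had one. The adjusted p was lowest without mouse 2276, at 0.00580 for *Ccl8*, 0.0212 for *Ccl12* and 0.0564 for *Ccl2*, and as high as 0.970 in other omissions. *Ccr2*, the main monocyte receptor of these ligands, was at 0.380, 4.22 and 1.43 FPKM against 0.828, 0.975 and 0.632. It was thus lowest of all in mouse 2276 and highest in mouse 2278 (log2 fold change 0.71 ± 0.76, limma adjusted p = 0.801), and was −0.07 without mouse 2278.

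Ligands of *Ccr1* and related receptors were mixed. *Ccl5*, made by activated T cells, NK cells and platelets and also called RANTES (chromosome 11, 83525778 to 83530518, minus strand), was at 0.50, 11.4 and 22.1 FPKM against 0.279, 0.349 and 0.161. The genotypes did not overlap, but the order of the mice was that of the lymph node genes (log2 fold change 3.92 ± 1.28, limma adjusted p = 0.438). Its unadjusted p was above 0.05 without mouse 2278, mouse 2279, WT mouse 2277 or WT mouse 2281, with log2 fold changes of 2.89 to 3.97. *Ccl6* and *Ccl9*, macrophage and myeloid products of the same cluster, had higher WT levels and less difference. *Ccl6* was at 5.77, 10.3 and 4.01 FPKM against 4.25, 4.33 and 3.38, and *Ccl9* at 4.07, 6.06 and 2.81 against 3.09, 3.33 and 4.07. Mouse 2278 was the highest for both, mouse 2279 was inside or below the WT range, and neither passed (limma adjusted p = 0.576 for *Ccl6* and adjusted p = 0.832 for *Ccl9*). Without mouse 2279 the log2 fold change of *Ccl6* was 0.95 instead of 0.64, with an unadjusted p below 0.05. *Ccl3* and *Ccl4*, products of activated macrophages and T cells, stayed at or below 0.280 and 0.136 FPKM in every library, and for *Ccl4* the genotypes did not overlap.

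Eosinophil ligands overlapped between genotypes. *Ccl11*, or eotaxin, had the highest mean over the 6 libraries of any inflammatory ligand, at 21.2, 12.9 and 13.7 FPKM against 15.4, 11.4 and 16.3. Its log2 fold change was 0.13 with a 95% interval of −0.47 to 0.73 (limma adjusted p = 0.902). *Ccl11* lies between *Ccl7* and *Ccl12* on chromosome 11 (82057823 to 82062955, plus strand), so genes on either side of it had no overlap between genotypes while its own values mixed. *Ccl24* was at 1.02, 1.74 and 0.855 against 1.09, 0.945 and 0.873 (log2 fold change 0.23, interval −0.53 to 1.0, limma adjusted p = 0.853), and *Ccl26* was listed at 0 throughout.

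Neutrophil ligands were low. *Cxcl1* was the one member tested, at 1.10, 0.577 and 0.415 FPKM against 0.257, 0.169 and 0.546, with its highest value in mouse 2276 and mouse 2279 inside the WT range (log2 fold change 0.92 ± 0.57, limma adjusted p = 0.633). *Cxcl2*, *Cxcl5* and *Cxcl15* did not exceed 0.166 FPKM in any library, and *Cxcl3* was listed at 0 in all. The receptor *Cxcr1*, found on neutrophils, was listed at 0 in mouse 2276 and all WT mice, and at 0.0483 and 0.0913 in mice 2278 and 2279. Neutrophil markers stood apart more than these ligands did. The sum of 8 such genes was 21.2, 137.7 and 54.4 FPKM against 0.815 to 4.01. Of the 6 tested, 5 had an unadjusted limma p below 0.05 (*S100a8*, *S100a9*, *Ngp*, *Camp* and *Retnlg*), all higher, where 5.18% of all genes tested were higher. *Ngp*, *Camp* and *Retnlg* were under 0.5 FPKM in every WT mouse and entered the fit only through HrasG12V mice, so this count is a description. *S100a9*, a calcium-binding protein of neutrophils, was at 10.1, 48.7 and 19.5 FPKM against 1.70, 1.49 and 0.478 (adjusted p = 0.288). The part of these cells in the inflammatory levels was not tested. Macrophage markers had a sum of 114.6, 239.2 and 124.6 FPKM against 87.3 to 104.0. The largest part of each sum was *Lyz2*, at 28.1, 122.2 and 60.6 FPKM against 31.7, 34.1 and 29.9. *Emr1* and *Cd163* had negative log2 fold changes (−0.22 and −0.27) and the others positive ones. By limma, 1 of 9 genes had an unadjusted p below 0.05 (*C1qa*, higher), where 5.18% of all genes tested were higher.

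Interferon-induced ligands of *Cxcr3*, which attract effector T cells, sit side by side on chromosome 5. *Cxcl9* (92321347 to 92328079, minus strand) was at 0.708, 1.80 and 1.74 FPKM against 0.547, 0.582 and 0.382, without overlap (log2 fold change 1.24 ± 0.42, limma adjusted p = 0.454). Its unadjusted p was below 0.05 in 3 of the 6 omissions of 1 mouse and above it without mouse 2278, mouse 2279 or WT mouse 2281, with log2 fold changes of 1.03, 1.06 and 1.09. *Cxcl10*, whose upstream sequence is printed above, was lower but also without overlap, at 0.104, 0.851 and 0.530 against 0.0612, 0.0607 and 0.0356. *Cxcl11*, annotated as a polymorphic pseudogene, was at 0.159, 0.158 and 0.307 against 0.353, 0.272 and 0.0298, with full overlap. Their receptor *Cxcr3* was at 0.318, 0.732 and 0.971 against 0.0368, 0.129 and 0.0218, and each HrasG12V mouse was above each WT mouse. *Cxcr3* was under the limit for testing. In the limma fit without that limit its log2 fold change was 2.20 ± 0.44. Its unadjusted p of 0.00229 was the lowest of the 46 genes there (limma adjusted p = 0.389). *Cxcl10* and *Cxcl11* overlap *Art3* on the other strand.

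Other inflammatory receptors were under the limit for testing. *Ccr1*, a receptor of monocytes and neutrophils, was at 0.482, 1.07 and 0.276 FPKM against 0.360, 0.288 and 0.126. *Ccr3*, of eosinophils, was above 0 only in mice 2278 and 2279, at 0.136 and 0.0876.

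**Figure D3:**
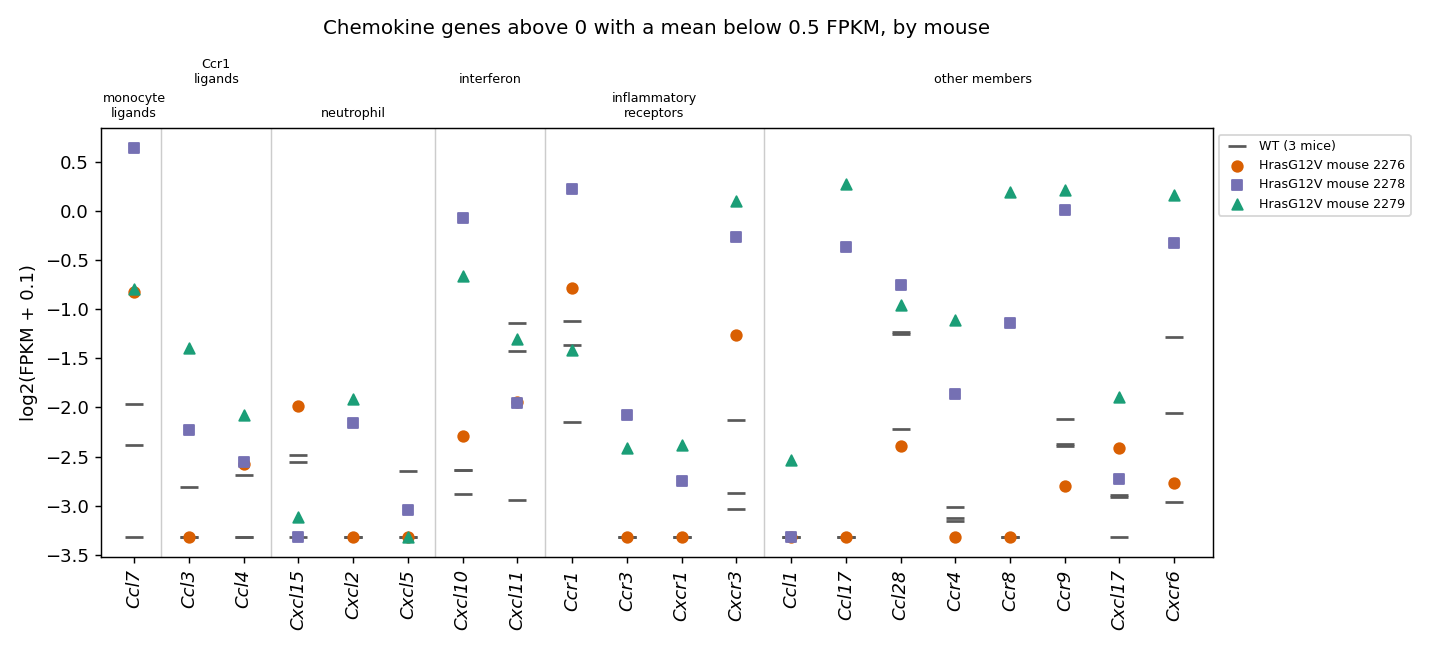
Level of 20 chemokine genes above 0 with a mean under 0.5 FPKM, as log2(FPKM + 0.1), with 1 symbol per HrasG12V mouse and 1 dash per WT mouse. Values listed at 0 lie at the bottom of the axis, and mice 2278 and 2279 are the highest animals for Cxcr3, Ccl17, Ccr4, Ccr8, Ccr9 and Cxcr6, while mouse 2276 is at or near the WT mice for all of these but Cxcr3.

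Among members with other roles, the transcripts with the highest means over the 6 libraries overlapped between genotypes. *Cxcl12*, which retains stem cells and lymphocytes and is made by stroma and endothelium, was at 41.8, 58.0 and 64.1 FPKM against 64.2, 59.3 and 45.5. The log2 fold change was −0.05 with a 95% interval of −0.64 to 0.54 (limma adjusted p = 0.966), and its sign turned under quantile normalization and array weights. *Cxcl14*, of skin and other epithelia and of stroma, was at 31.7, 18.6 and 12.6 against 19.7, 20.0 and 41.8 (log2 fold change −0.38, interval −1.42 to 0.65, limma adjusted p = 0.816). *Cxcr4*, the *Cxcl12* receptor on most leukocytes, was at 5.45, 11.3 and 18.5 against 6.17, 5.24 and 5.55. Mice 2278 and 2279 were again above all WT mice and mouse 2276 was not (log2 fold change 0.88 ± 0.42, limma adjusted p = 0.539), and without mouse 2276 it was 1.34 (limma adjusted p = 0.0315).

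*Cxcl16*, a membrane-bound ligand on macrophages and endothelium that binds *Cxcr6*, was the 1 gene of this class with p below 0.05. It was at 1.85, 3.06 and 3.77 FPKM against 0.885, 1.57 and 1.65, without overlap (log2 fold change 1.02 ± 0.35, limma adjusted p = 0.454). Its unadjusted p was above 0.05 without mouse 2278, mouse 2279 or WT mouse 2277, with log2 fold changes of 0.95, 0.80 and 0.75. *Cxcl16* overlaps *Zmynd15* on the other strand. *Cxcr6*, its receptor on effector and resident T cells, was at 0.0465, 0.697 and 1.02 against 0.310, 0.141 and 0.0284.

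Ligands and receptors of dendritic cells, regulatory T cells and B cells followed the pattern of mice 2278 and 2279. *Ccl22*, a dendritic cell product, was at 0.0191, 4.68 and 9.55 FPKM against 0.0545, 0.165 and 0.0216. Its log2 fold change of 3.37 ± 1.60 did not pass (limma adjusted p = 0.539). Mouse 2276 was the lowest of all 6 animals, and without that mouse it was 5.31 (adjusted p = 0.00608). *Ccl17*, its neighbour on chromosome 8, was listed at 0 in mouse 2276 and all WT mice and at 0.678 and 1.11 in mice 2278 and 2279. Their shared receptor *Ccr4* reached 0.175 and 0.365 in those mice and at most 0.0241 elsewhere. *Ccr6*, a receptor of B cells and Th17 cells, was listed at 0 in mouse 2276 and all WT mice and was at 1.53 and 2.77 FPKM in mice 2278 and 2279 (limma adjusted p = 0.537). *Ccr8*, of regulatory T cells, showed the same arrangement at 0.355 and 1.04, and *Ccl1*, its ligand, was above 0 only in mouse 2279, at 0.0724. *Ccr6*'s own ligand *Ccl20* was listed at 0 in all 6 libraries. The 6 dendritic cell markers had sums of 2.86, 7.89 and 6.31 FPKM against 4.74 to 5.55, so mouse 2276 lay below and mice 2278 and 2279 above the WT range. Most of each sum was *Zbtb46* and *Clec9a*, and *Itgax* was at 0.0775, 0.651 and 0.534 FPKM against 0.147, 0.139 and 0.0717. By limma, 0 of the 3 genes tested had an unadjusted p below 0.05 (0 also by adjusted p), and the part of these cells in *Ccl22* and *Ccl17* was not tested.

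Skin, gut and thymus chemokines showed no common direction. *Ccl25*, a ligand of thymus and small intestine, was at 2.69, 1.45 and 1.49 FPKM against 2.34, 2.33 and 2.65. Mice 2278 and 2279 were below every WT mouse and mouse 2276 above (log2 fold change −0.41 ± 0.27, limma adjusted p = 0.651), and without mouse 2276 it was −0.69 (adjusted p = 0.0361). Its receptor *Ccr9* went the other way in the same mice, at 0.0436, 0.906 and 1.06 against 0.130, 0.0935 and 0.0909. The level of *Ccr9* is uncertain, since the gene overlaps Gm17200 and Gm17020 on its own strand and others on the opposite one, and *Ccl25* overlaps Elavl1, *Cxcr5* overlaps Bcl9l and *Cxcr6* overlaps Fyco1 on the opposite strand. *Ccl27a*, a ligand of skin keratinocytes, was at 10.9, 4.11 and 4.74 against 8.02, 4.69 and 6.30 (log2 fold change −0.05, interval −1.0 to 0.90, limma adjusted p = 0.983). Its copy *Ccl27b* was listed at 0 in all libraries and shares 126 of 792 stretches of 50 bases (15.9%) with it, and *Ccl27a* also overlaps *Il11ra1* on the other strand, so its level is uncertain. *Ccr10*, the receptor of Ccl27 and *Ccl28*, was the 1 gene lower in every HrasG12V mouse, at 0.685, 0.644 and 0.397 against 0.795, 0.797 and 0.831, with no overlap (log2 fold change −0.45 ± 0.34, limma adjusted p = 0.700). It overlaps *Cntnap1* on the other strand. *Ccl28* was at 0.0898, 0.493 and 0.414 against 0.114, 0.319 and 0.326, and *Cxcl17*, a mucosal ligand, was at 0.0884, 0.0508 and 0.169 against 0.0344, 0.0331 and 0, without overlap. *Ccr1l1*, a receptor gene related to *Ccr1*, was listed at 0 in all 6 libraries.

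**Figure D4:**
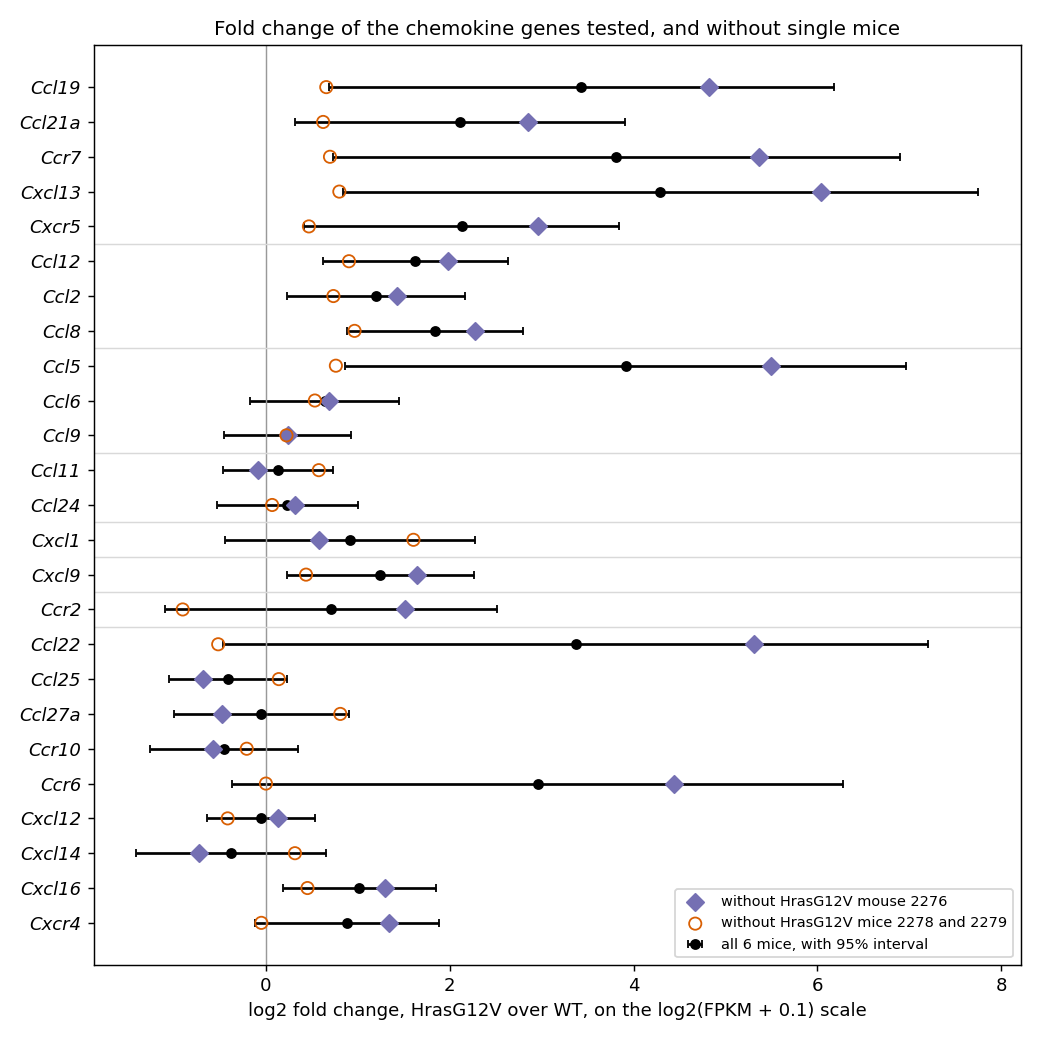
Log2 fold change of the 25 chemokine genes tested, HrasG12V over WT on the log2(FPKM + 0.1) scale, with the 95% interval from limma over all 6 mice (black), the value without mouse 2276 (diamonds) and the value with mouse 2276 as the only HrasG12V mouse (open circles). For Ccl19, Ccl21a, Ccr7, Cxcl13 and Cxcr5 the open circles lie between 0.47 and 0.80 and the diamonds between 2.85 and 6.04, while for Ccl8, Ccl12 and Ccl2 the open circles lie at 0.96, 0.90 and 0.73.

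By gene cluster, the 6 genes at chromosome 11, 82035571 to 82305690 (*Ccl2*, *Ccl7*, *Ccl11*, *Ccl12*, *Ccl8* and *Ccl1*), all had a higher mean log2 value in HrasG12V mice, and 4 had no overlap, where 7.55% of all genes lay higher without overlap. In the neighbouring cluster at 83525778 to 83664683 (*Ccl5*, *Ccl9*, *Ccl6*, *Ccl3* and *Ccl4*) all 5 mean log2 values were higher and 2 genes had no overlap. At chromosome 5, 92321347 to 92365485, all 3 mean log2 values (*Cxcl9*, *Cxcl10* and *Cxcl11*) were higher, although the mean FPKM of *Cxcl11* was 0.208 against 0.218 in WT mice, with 2 genes without overlap. By contrast, of the 4 neutrophil ligands above 0 at chromosome 5, 90759360 to 90905938, 2 mean log2 values were higher and 0 genes were without overlap. In the chromosome 4 cluster (41769467 to 42773993) 3 of 5 genes were above 0, 2 mean log2 values were higher (*Ccl19* and *Ccl21a*) and 0 genes were without overlap. *Ccl1* and *Cxcl2* were listed at 0 in every WT mouse, so their means could only be higher. In these clusters neighbours did not all share one pattern.

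Genes that act around the chemokine system were described by the same fit. Of 9 tested among 11 atypical receptors and other chemokines, 0 had an unadjusted limma p below 0.05 with higher values and 1 with lower. Of all genes tested, 5.18% and 4.99% did. The 1 lower gene was *Ackr3*, a receptor that takes up *Cxcl12*, at 23.3, 22.9 and 16.2 FPKM against 27.4, 29.7 and 31.9 (log2 fold change −0.53 ± 0.20, limma adjusted p = 0.481). All 3 HrasG12V mice were below all WT mice, while its ligand *Cxcl12* overlapped. Endothelial markers had a sum of 94.5, 110.6 and 111.4 FPKM against 124.6 to 151.1. Of these 4 genes, *Cdh5* alone had an unadjusted limma p below 0.05 (lower, limma adjusted p = 0.382), where 4.99% of all genes tested were lower. The part of endothelium in the level of *Ackr3* was not tested. *Cx3cl1*, the membrane-bound ligand fractalkine, was at 0.573, 0.876 and 1.19 against 1.34, 1.28 and 0.959 (adjusted p = 0.705).

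Of 23 tested among 25 genes that carry the signal below chemokine receptors, 6 had an unadjusted limma p below 0.05 with higher values (*Arrb2*, *Grk6*, *Plcb2*, *Rac2* and *Was* among them) and 0 with lower. Among all genes tested the shares were 5.18% and 4.99%. *Plcb2*, for 1, was under 0.5 FPKM in every WT mouse and entered the fit only through mice 2278 and 2279. The median log2 difference over the list was 0.77, and by mouse it was −0.13, 1.14 and 1.23 in 2276, 2278 and 2279. *Rac2*, a GTPase of blood cells, was at 1.09, 14.9 and 16.8 FPKM against 0.936, 1.19 and 0.820 (adjusted p = 0.477). *Gnai2*, the widely expressed G protein subunit to which these receptors couple, was at 64.4, 66.2 and 57.8 against 47.2, 53.7 and 51.0, without overlap but with an adjusted p = 0.602.

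Lymphotoxin and noncanonical NF-kappa B genes, known to switch on *Ccl19*, Ccl21 and *Cxcl13* in lymphoid stroma, were also measured. Of 7 genes, 5 were tested and 4 had an unadjusted limma p below 0.05 (*Ltb*, *Relb*, *Nfkb2* and *Map3k14*), all higher, where 5.18% of all genes tested were higher. *Ltb* was under 0.5 FPKM in every WT mouse and entered the fit only through mice 2278 and 2279, so its place in this count is a description. *Ltb*, a lymphotoxin subunit made by lymphocytes, was at 0.269, 11.2 and 14.3 FPKM against 0.214, 0.0970 and 0.298 (adjusted p = 0.473). Its receptor *Ltbr* was at 21.5, 15.3 and 14.5 against 14.4, 15.5 and 14.8 (adjusted p = 0.809). *Relb*, the transcription factor at the end of this pathway, was at 5.99, 5.72 and 6.49 against 2.87, 3.33 and 2.22, with the 3 HrasG12V mice close together and above all WT mice (log2 fold change 1.10 ± 0.18, limma adjusted p = 0.288). *Nfkb2*, its partner, was at 7.10, 8.82 and 8.36 against 5.42, 4.80 and 4.20 (adjusted p = 0.349), and *Map3k14*, the kinase of the pathway, at 1.62, 2.04 and 2.44 against 1.33, 1.36 and 1.36 (adjusted p = 0.481). *Relb*, *Nfkb2* and *Map3k14* thus separated all 3 HrasG12V mice from WT, and *Ltb* separated mice 2278 and 2279.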

How the data were processed

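According to the labels and the methods of the study, RNA of 6 gastrocnemius muscles was made into stranded mRNA libraries and read single-end. The authors mapped reads with TopHat and deposited, per library, the FPKM that Cufflinks and Cuffnorm gave for each gene symbol, scaled between libraries. The labels name GRCm38 and mm10, and tool versions, annotation and the use of strand in counting are not given in any source used here. Members and gene lists were chosen with earlier results of these data known. Results for 1 receptor outside the 53 members, and single-gene results for 3 other genes, are not reported here. Otherwise, every member with a mean of at least 0.5 FPKM is named, lower members with their values or range, and those at 0 by name. Of other lists, genes at an unadjusted p below 0.05 and some abundant ones are named.

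Comparisons used R 4.3.3 and limma 3.58.1, two-sided, with a trend of the spread over abundance and no covariate, on log2(FPKM + 0.1) over 13359 genes, with Benjamini-Hochberg adjustment, after the script had been tested on simulated data. Errors after ± are standard errors unless SD is named, and p-values measure the spread between mice. Gene positions came from GENCODE vM21 and upstream sequences from RefSeq (GRCm38.p6). Alternatives were pseudocounts of 1 and 0.01, no filter, a filter of 1, median centring, equal totals, quantile normalization, no moderation, array weights and leaving out mice. Python 3.11.15 with numpy 2.4.6, pandas 2.3.3 and, for figures, matplotlib 3.10.9 did the rest.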

Additional observations from a re-analysis of the deposited data

How the results depend on the processing

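Of the alternatives for the 25 genes tested, 312 kept direction and side of an unadjusted p of 0.05, 53 fell above it, 11 passed it and 19 turned sign. Chemokine genes with p below 0.05 numbered 11 in the limma fit, 6 with equal FPKM totals, 4 without moderation, 16 with array weights (11 by adjusted p), 16 without a filter, 3 with mouse 2276 as the only HrasG12V mouse, and 3 to 16 when 1 mouse was left out. Over all genes the count was 1358, and 712 with equal totals, 3042 with array weights, 6312 without mice 2278 and 2279, and 606 to 3979 without 1 mouse. By adjusted p it was 8, and 5 with a pseudocount of 1, 1 without moderation, 572 with array weights, 4200 without mice 2278 and 2279, and 7 to 1291 without 1 mouse. The lymph node homing median of 3.43 was 0.656 without mice 2278 and 2279 and 1.83 with a pseudocount of 1, and the inflammatory median of 0.81 was 0.298 with a pseudocount of 1 and 1.37 with 0.01. Without mice 2278 and 2279, where the spread comes from the WT mice alone, log2 fold changes turned sign for *Ccl22* (−0.52), *Ccl25* (0.14), *Ccl27a* (0.81), *Ccr2* (−0.91), *Cxcl14* (0.32) and *Cxcr4* (−0.0498). *Ccl11* turned to −0.0376 with array weights, and *Cxcl12* to 0.0338 with array weights and 0.00984 after quantile normalization. Leaving out 1 mouse gave −0.0912 to 0.262 for *Ccl11*, −0.0449 to 0.43 for *Ccl24*, −0.48 to 0.21 for *Ccl27a*, −0.0373 to 0.50 for *Ccl9*, −0.0704 to 1.51 for *Ccr2* and −0.20 to 0.13 for *Cxcl12*. The cause of these moves was not tested. No paired analysis was possible because the labels number the mice individually and the genotypes share no number. Read depth is known only as a nominal value, so no counting error was given for low FPKM, and 3 mice per genotype limit every comparison.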
